A study of Homo sapiens with 9 samples.

Results

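U87 cells, an established human glioma line, were transfected with the edited form of a microRNA, miR-376a*G, or with a control miRNA, and their RNA was measured on Affymetrix human expression arrays. The comparison takes the 3 arrays labelled miR-376a*G against the 3 labelled control, which are 6 of the 9 arrays in the series. The other 3 arrays are of cells given the unedited form, miR-376a*A. All groups received 50 nM of a duplex through a lipid reagent for 24 h, so the controls share the transfection itself and differ in the duplex. The labels call the 3 samples of a group biological replicates without saying how separately they were grown. The p-values therefore rest only on the spread between such samples, pooled within the groups over all 9 arrays. A single cell line, dose and time were used, and how much of each miRNA the cells held was not analysed here.

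The rule kept every probe set other than the array controls, 54613 of 54675. Deposited values are signal intensities, 1 per probe set and array, and were analysed as log2(signal + 16), so that a fold given here understates the change of dim genes. After removal of the dimmest 40 percent and with 1 probe set kept per gene there were 20068 features, of which 13697 carried a single gene symbol. Every difference is miR-376a*G minus control, and a feature is said to have risen or fallen only where the adjusted p of limma's moderated test was under 0.05.

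Adenosine-to-inosine editing is carried out by the ADAR enzymes on double-stranded RNA, and inosine is read as guanosine. A microRNA finds its targets mainly through the seed, a short run near its 5′ end that pairs with messenger RNA, so a changed base in the seed changes which transcripts can pair. miR-376a* is the older name of the 5′ strand of the miR-376a hairpins, which lie in an imprinted cluster on the long arm of chromosome 14 and are edited in brain tissue. The RefSeq sequences of the unedited strand are shown because the editable adenosines lie in the seed, which is in capitals (bases 2 to 8).

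hsa-miR-376a-5p: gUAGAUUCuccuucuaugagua
hsa-miR-376a-2-5p: gGUAGAUUuuccuucuauggu

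The first is 22 bases long and lies in MIR376A1 at chr14:101040788-101040809 on the plus strand of GRCh38.p14. The second is 21 bases long and lies in MIR376A2 at chr14:101040080-101040100 on the plus strand. Counted from the 5′ end, adenosines of the seed stand at positions 3 and 5 of the first and 4 and 6 of the second. Apart from one another's hairpin family, 0 other mature human miRNAs in the RefSeq table had either seed. The labels do not say which of these sequences the duplex followed or which adenosine was replaced, so the G form is not written out.

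All arrays were scaled to a trimmed mean signal of 100.01 and had median signals between 17.99 and 20.4. Across features, which are not independent replicates, the miR-376a*G arrays correlated with r of 0.994 to 0.9952 and the control arrays with r of 0.9865 to 0.9934. Control replicate 1 stood furthest from its group, with an SD of deviations of 0.164 (log2), followed by control replicate 2 with 0.145. The SD was 0.113 on control replicate 3 and 0.102 to 0.114 on the miR-376a*G arrays. Results that control replicate 1 touches are also given without it. The 3′ to 5′ signal ratio of GAPDH lay between 0.866 and 0.907 and that of ACTB between 0.868 and 0.908 over all arrays. For GAPDH all 3 miR-376a*G arrays (0.867, 0.882 and 0.866) lay below all 3 control arrays (0.886, 0.907 and 0.897) and all 3 miR-376a*A arrays, whereas for ACTB the groups overlapped. The part of this difference in the results was not tested. Among glial and glioma markers, vimentin (VIM) reached 2159.7 ± 209 and the hyaluronan receptor CD44 1956 ± 105 in control cells (SD, n = 3), whereas OLIG2 and SOX2 had group means between 18.9 and 21.2 and GFAP was too dim to be tested. Signals for the 3 epithelial markers tested, MUC1, KRT8 and EPCAM, ranged from 12.6 to 28.4 (group means). CDKN2A and MTAP, which U87 cells are known to lack, had group means of 29.7 to 32.6 and 13.4 to 18.1.

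With miR-376a*G, 2374 features rose (11.8% of 20068) and 2619 fell (13.1%), together 24.9%. The 3 arrays of one group lay wholly on one side of the other 3 for 7683 features (38.3%). Most differences were small: 480 features rose and 640 fell by at least 1.5-fold, 100 rose (0.498%) and 144 fell (0.718%) by at least 2-fold, and 24 rose and 21 fell by at least 3-fold. The median difference of all features was -0.0038 and the median standard error 0.10 (log2). Which sign was the more frequent depended on the scaling between arrays: with each array centred on its median 2594 features rose and 2309 fell, although falls remained the more frequent at 2-fold or more (107 rose and 135 fell). Among the 5017 features with mean signals of 76.8 to 277.7, 796 rose (15.9%) and 1108 fell (22.1%), and among the 5017 brighter ones 981 rose (19.6%) and 799 fell (15.9%). That order turned with quantile normalization, where 945 rose and 898 fell in the first class and 910 rose and 932 fell in the second. Of 12421 protein-coding genes 1699 rose (13.7%) and 2016 fell (16.2%), or 1842 and 1784 after centring on the median. Non-coding genes, mostly long non-coding RNAs, rose more often than they fell under each scaling: of 994, 94 rose (9.46%) and 46 fell (4.63%), with 101 and 40 after centring and 103 and 36 after quantile normalization. Most of these changes were small, since 1 non-coding gene rose and 3 fell by at least 2-fold.

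**Figure D1:**
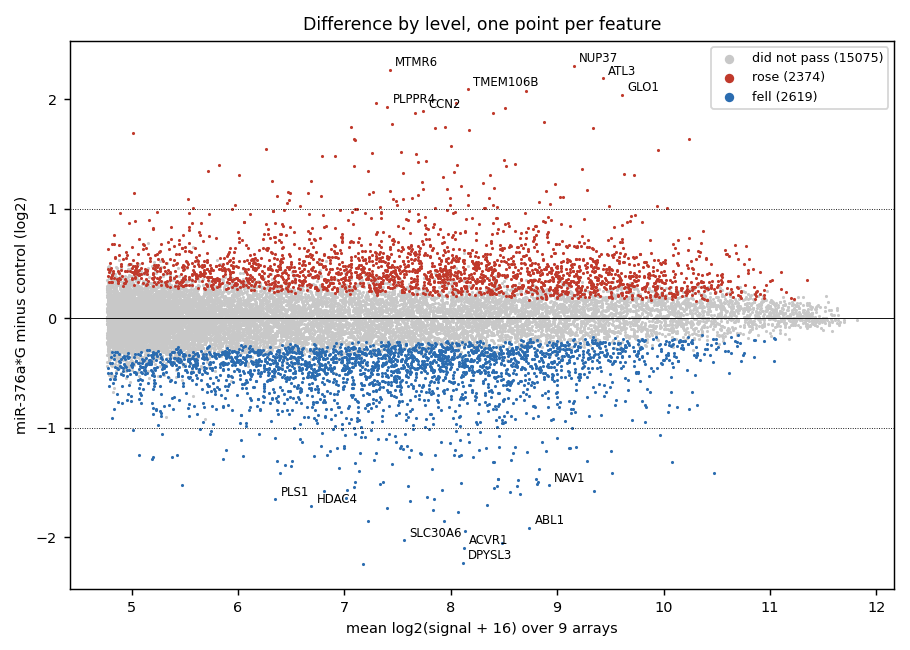
Each point is 1 of 20068 features, placed by its mean log2(signal + 16) over the 9 arrays (horizontal) and its difference between miR-376a*G and control (vertical, log2). Red points rose and blue points fell at an adjusted p under 0.05, grey points did not pass, and the dotted lines mark a 2-fold change. A reader should see calls of both signs at every level, with the 45 features past 3-fold lying far from the bulk.

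The largest falls included genes of growing neurites. DPYSL3, a collapsin response mediator that links guidance receptors to the cytoskeleton, had signals of 98.3, 81.7 and 74.0 on the miR-376a*G arrays and 500.1, 436 and 435 on the control arrays. All miR-376a*G values lay far below all control values (log2 difference -2.24 ± 0.093 SE, adjusted p = 1.08e-08). GAP43, a membrane phosphoprotein of axonal growth cones, read 62.9, 52.9 and 51.2 against 208, 258 and 262, again without overlap (log2 difference -1.85 ± 0.097 SE, adjusted p = 6.85e-08). NAV1, a microtubule-binding neuron navigator, fell by 1.53 on the log2 scale, from 677 ± 15.1 to 225 ± 15.6 (SD, n = 3). TPRG1L, which encodes the synaptic vesicle protein Mover, fell by 1.67. Of 23 growth cone and neurite genes tested, 2 rose (8.7%), 6 fell (26.1%) and 15 did not pass. Over all single-symbol genes 13.3% rose and 15.2% fell. DPYSL3 and GAP43 belong to this list, which was chosen with earlier results known, so its share of falls partly restates theirs. The 2 that rose were PLPPR4, taken up with the rises, and PLXNA2 (0.45, chosen after its value was seen), a semaphorin receptor subunit, while the related receptor PLXNA1 fell (-0.51).

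Several of the large falls were receptors and kinases at the head of signalling pathways. ACVR1, the BMP type I receptor also called ALK2, read 84.0, 96.7 and 103 with miR-376a*G and 524, 399 and 454 with the control (log2 difference -2.10 ± 0.11 SE, adjusted p = 5.63e-08). Every control value lay far above every miR-376a*G value. ABL1, a non-receptor tyrosine kinase that remodels actin, read 164, 154 and 166 against 726, 635 and 600.1 (log2 difference -1.92 ± 0.076 SE, adjusted p = 8.96e-09). PTPRG, a receptor tyrosine phosphatase, fell by 1.64 and the orphan receptor GPR157 by 1.64 (log2). DIXDC1, a positive regulator of Wnt signalling with a DIX domain, read 34.7, 44.1 and 41.2 against 190.4, 129 and 140.2, with the highest control value on replicate 1. STK40, a pseudokinase, fell from 283 ± 17.5 to 87.1 ± 1.99, and PLEKHA1, which binds a phosphoinositide made by PI 3-kinase, from 512 ± 59.5 to 169.5 ± 12.4.

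Cytoskeletal and adhesion genes made up another part of these 30 falls. PLS1, an actin-bundling plastin, read 35.8 ± 5.42 against 149.7 ± 39.7 (SD, n = 3; log2 difference -1.66 ± 0.15 SE, adjusted p = 6.67e-06). ITGB3, the integrin beta 3 subunit, read 116, 121 and 116 against 438, 341 and 367, and 3 of its 6 other probe sets also fell. ARHGAP21, a GTPase-activating protein, fell by 1.53, and KIRREL1, an adhesion molecule related to nephrin, by 1.85 (log2). The other probe set of KIRREL1 did not pass.

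Transport, metabolism and gene regulation accounted for most of the rest. SLC30A6, a zinc transporter of the Golgi, read 54.0, 59.6 and 62.6 against 316, 269 and 283 (log2 difference -2.03 ± 0.082 SE, adjusted p = 9.2e-09). AP3M1, a subunit of the AP-3 adaptor that sorts cargo to lysosomes, fell by 1.71, and RIMOC1, a partner of the complex that activates RAB7, by 1.53 (log2). SLC38A7, a glutamine transporter, read 57.0, 61.5 and 56.4 against 208, 210.2 and 194, and both of its other probe sets fell as well. Among enzymes, CYB5R4, a cytochrome b5 reductase, fell by 1.75, RIDA, an imine deaminase, by 1.55, and SCLY, the selenocysteine lyase, by 1.52. The other probe sets of SCLY, both dim, did not pass (-0.43 and 0.15). HDAC4, a class IIa histone deacetylase, had the lowest signals of these regulators, 33.1, 30.8 and 38.9 against 164, 142 and 142 (log2 difference -1.72 ± 0.092 SE, adjusted p = 7.22e-08). UBP1, a transcription factor of the CP2 family, fell from 538 ± 56.9 to 166 ± 10.3, and CDC26, a subunit of the anaphase-promoting complex, fell by 1.59. CARHSP1, an RNA-binding protein with a cold-shock domain, read 202, 204 and 211 against 658, 659.8 and 542, but another of its probe sets passed with the opposite sign (0.58 log2). STX17-DT, a non-coding transcript divergent from STX17, was first in rank and also the least even, at 52.7, 56.2 and 80.4 against 471, 389 and 240.4 (log2 difference -2.24 ± 0.30 SE, adjusted p = 0.000141).

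**Figure D2:**
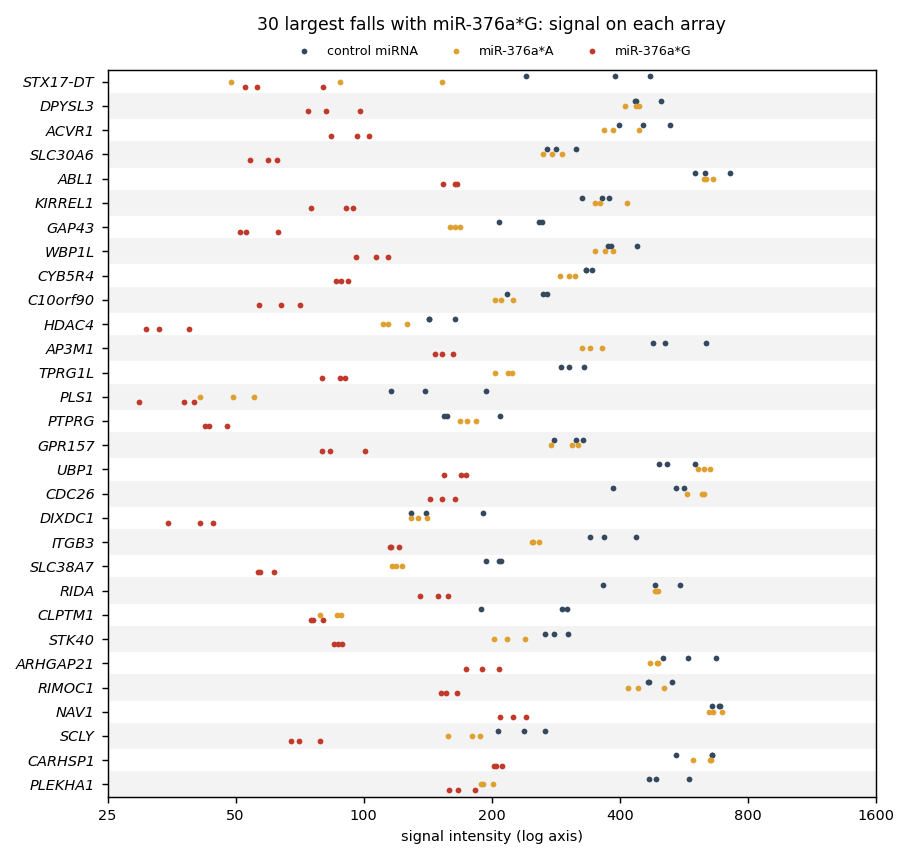
Signal of the 30 genes that fell most with miR-376a*G (rows, largest fall at the top) on each array, on a log axis. Dark points are the 3 control arrays, orange points the 3 miR-376a*A arrays and red points the 3 miR-376a*G arrays. In every row the red points lie to the left of the dark ones, with folds from 2.84 to 4.73, and in most rows the orange points lie near the dark ones.

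Several of the 30 largest rises encode proteins of the endomembrane system, although the lists around them held changes in both directions. Of 38 genes of the lysosome, its proton pump and Ragulator, 5 rose (13.2%), 6 fell (15.8%) and 27 did not pass (median -0.082), against 13.3% and 15.2% of single-symbol genes. Of 22 myotubularins and effectors of phosphatidylinositol 3-phosphate, 3 rose (13.6%), 5 fell (22.7%) and 14 did not pass (median -0.21), and of 15 genes of the GALNT list, 3 rose (20%), 4 fell (26.7%) and 8 did not pass. The rises of the lysosome list were 2 when any 1 miR-376a*G array was left out, 3 without control replicate 3 and 9 without control replicate 2, and the falls of the myotubularin list were 8 without that control array and 3 without miR-376a*G replicate 2. ATL3, an atlastin GTPase that shapes the endoplasmic reticulum, read 1044, 1200.0 and 1142 with miR-376a*G and 278, 213 and 216 with the control (log2 difference 2.19 ± 0.098 SE, adjusted p = 1.89e-08). Another ATL3 probe set, which was brighter in control cells (mean 328), rose by only 0.26 (log2), and a dim one did not pass (0.19). TMEM106B, a lysosomal membrane protein, read 554, 566 and 574 against 134, 113 and 115, and both of its other probe sets rose by at least 1.83 (log2). LAMTOR3, a Ragulator subunit that anchors nutrient signalling at the lysosome, rose by 1.92, and SEC22C, a SNARE-like protein of the early secretory pathway, by 1.79. MTMR6, a phosphatase of the endosomal lipid phosphatidylinositol 3-phosphate, read 284, 312 and 324 against 66.1, 41.9 and 46.4 (log2 difference 2.27 ± 0.12 SE, adjusted p = 9.12e-08). WDFY1, a protein that binds the same lipid, rose by 1.97. GALNT1, which starts mucin-type O-glycosylation in the Golgi, read 667, 660.0 and 640.2 against 149.7, 139 and 142, and all 3 of its other probe sets rose.

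Surface and secreted proteins followed. CCN2, the matricellular connective tissue growth factor, read 403, 442 and 447 against 107, 98.2 and 107 (log2 difference 1.89 ± 0.073 SE, adjusted p = 7.47e-09). CDH2, N-cadherin, rose by 1.75, the sialomucin PODXL by 1.72 and the caveolin CAV2 by 1.87 (log2). PTN, the heparin-binding growth factor pleiotrophin, was the brightest secreted gene of the 30, at 1524, 1429 and 1256 against 389, 566 and 477. PLPPR4, a neuronal membrane protein of the lipid phosphatase family, read 368, 406 and 449.8 against 92.1, 95.4 and 96.7 (log2 difference 1.93 ± 0.12 SE, adjusted p = 2.2e-07). CMTM6, which stabilises PD-L1 at the cell surface, rose by 1.74, and CACNA2D1, an auxiliary calcium channel subunit, by 1.97. The other probe set of CACNA2D1 differed by 0.24 and did not pass.

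The remaining rises included genes of the nucleus, the mitochondrion and the cell cycle. NUP37, a nuclear pore subunit, led the list with 963, 988 and 981 against 167, 199.8 and 188 (log2 difference 2.31 ± 0.070 SE, adjusted p = 1.08e-09), although its other probe set (0.25) did not pass. GLO1, which detoxifies methylglyoxal, read 1220.0, 1296 and 1252 against 282, 291 and 304. MRPS14, of the small mitochondrial ribosomal subunit, read 504, 498 and 502 against 101, 152 and 126. PPP1CC, a catalytic subunit of protein phosphatase 1, was the brightest of the 30 at 1744 ± 44.5 against 549 ± 44.2 (SD, n = 3). NR1D2, the nuclear receptor REV-ERB beta, rose by 1.78 and NDN, the growth suppressor necdin, by 1.75 (log2). CDK6, a kinase of the G1 phase, rose from 93.3 ± 12.1 to 292 ± 7.75. CASP4, an inflammatory caspase, rose by 1.51, although its other, dim probe set did not pass (0.10). DUS3L, a tRNA dihydrouridine synthase, was the dimmest of the 30 at 104, 95.3 and 113 against 26.2, 26.9 and 21.6. Groups did not overlap for any of these 60 genes, which the choice of genes required. Of the 19 falls with another tested probe set 15 had another that fell and 1 had one that rose, and of the 20 such rises 15 had another that rose and 0 had one that fell.

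**Figure D3:**
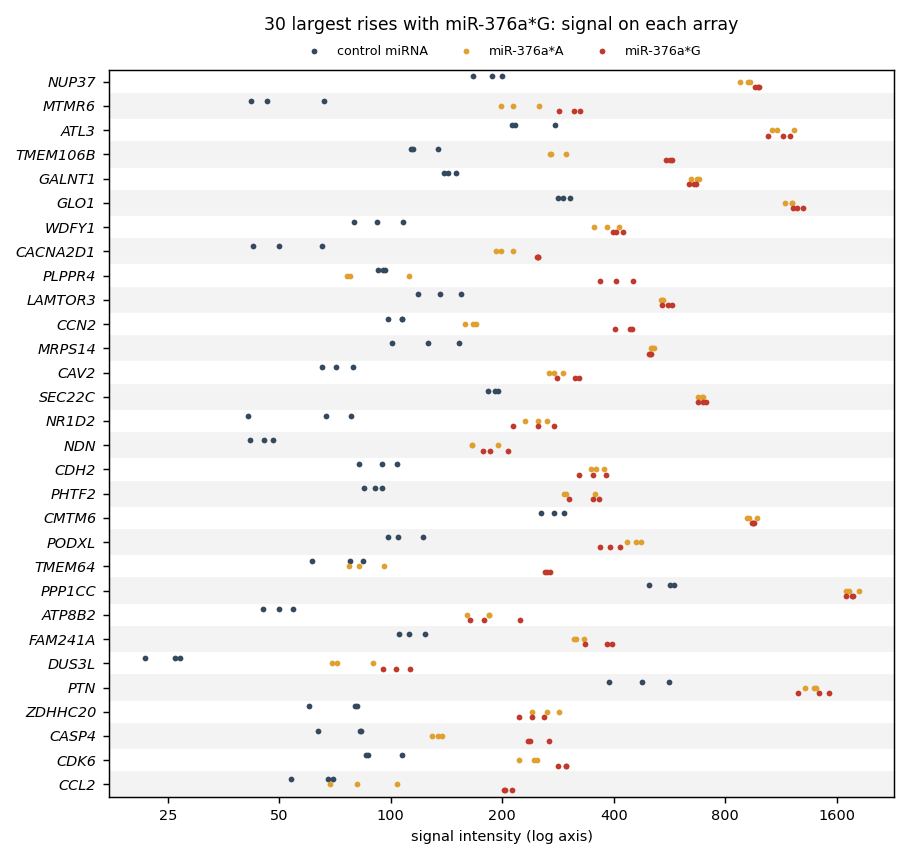
Signal of the 30 genes that rose most with miR-376a*G (rows, largest rise at the top) on each array, on a log axis, with colours for control (dark), miR-376a*A (orange) and miR-376a*G (red). Red points lie to the right of the dark ones in every row, by 2.80-fold to 4.95-fold. Orange and red points overlap or adjoin in most rows and stand clearly apart in a few, such as PLPPR4, CCN2, TMEM64 and CCL2.

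The labels also allow the edited form to be set against the unedited one. Over all features 1585 were higher with miR-376a*G than with miR-376a*A (7.9% of 20068) and 2086 were lower (10.4%), together 18.3%; among single-symbol genes the shares were 9.72% and 10.8%. Of the 30 largest falls 26 passed this test, all 26 lower with miR-376a*G, and of the 30 largest rises 9 passed, all 9 higher with miR-376a*G. The 60 genes were chosen with the same miR-376a*G arrays, so the direction of those calls is partly fixed by the choice. With miR-376a*A, 12 of the 30 falls and 27 of the 30 rises also passed against the control in the same direction. DPYSL3 had 430.1 ± 16.9 with miR-376a*A (SD, n = 3), and the forms differed by -2.15 (log2, adjusted p = 1.41e-08). ABL1 had 643 ± 16.3, a difference of -1.90 (adjusted p = 8.46e-09), and ACVR1 399 ± 39.6, a difference of -1.91 (adjusted p = 1.16e-07). The 4 falls that did not pass between the forms were STX17-DT, PLS1, CLPTM1 and PLEKHA1. PLS1 had 48.6 ± 7.03 with the unedited form, and the difference of -0.32 had a standard error of 0.15. Levels between those of the control and the edited form were seen for AP3M1 (344 ± 18.8), SLC38A7 (119.7 ± 3.26) and GAP43 (164 ± 4.70).

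The 9 rises that differed between the forms were PLPPR4, TMEM64, CCN2, CCL2, TMEM106B, CASP4, MTMR6, DUS3L and CDK6. PLPPR4 had 88.5 ± 20.1 with miR-376a*A, beside 94.8 ± 2.35 with the control, and the forms differed by 2.03 (log2, adjusted p = 1.56e-07). CCN2 had 165 ± 5.91 and differed by 1.30 (adjusted p = 1.17e-07). For GALNT1 the unedited form gave 666 ± 15.7, a difference of -0.021 with a standard error of 0.062, and for ATL3 1134 ± 81.8, a difference of -0.0070 with a standard error of 0.097. Both forms were compared with the same 3 control arrays, so a low control value enters both comparisons. RAP2A, a small GTPase reported as a target of the unedited form, was higher with miR-376a*G than with miR-376a*A by 0.84 (adjusted p = 1.78e-05). Against the control it had 1058, 1014 and 993 and 991, 888 and 795. The lowest miR-376a*G value lay just above the highest control value, and the difference did not pass (log2 difference 0.20 ± 0.084 SE, adjusted p = 0.107). Without control replicate 1 the difference was 0.28 (adjusted p = 0.0135), with the mean of its probe sets it was -0.11, and 2 of its 3 other probe sets fell.

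Most of the mitotic genes tested rose with the edited form. The counts of this and the later lists stand against 13.3% of single-symbol genes that rose and 15.2% that fell. Among the 40 genes of G2 and mitosis that were tested, 25 rose (62.5%), 0 fell and 15 did not pass, with a median difference of 0.27 against -0.0038 for all features. CCNA2, cyclin A2, read 1124, 1053 and 1117 against 452, 408 and 432 (log2 difference 1.32 ± 0.064 SE, adjusted p = 4.03e-08). TOP2A, the topoisomerase that resolves sister chromatids, rose by 0.64, CENPA, the centromeric histone, by 0.85 and NEK2, a centrosomal kinase, by 0.97. On the arrays the list mean, relative to each gene's mean over the 6 arrays, was 0.13, 0.18 and 0.16 with miR-376a*G and -0.11, -0.19 and -0.18 with the control. Against miR-376a*A 22 of the 40 were higher with miR-376a*G and 0 lower. Of 48 genes of G1/S and DNA replication 11 rose (22.9%), 5 fell (10.4%) and 32 did not pass. GMNN, the licensing inhibitor geminin, rose from 179 ± 18.6 to 515 ± 14.6, RFC5, a subunit of the clamp loader, by 0.71 and ORC6, of the origin recognition complex, by 0.61.

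Promoters of these mitotic genes are known to carry CCAAT boxes, bound by NF-Y, and the cell cycle homology region (CHR), bound by the MuvB complexes. The letters CCAAT and TTTGAA were searched on both strands in the RefSeq window of 250 bases before and 50 after the gene start (GRCh38.p14), a search chosen after the values were seen. Only these exact letters were searched, so a promoter without TTTGAA may still hold another form of the CHR. The promoters of CCNB2, cyclin B2, and CCNA2 are shown as the clearest member and as the largest rise, with the 120 bases before the start and the motifs in capitals.

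CCNB2: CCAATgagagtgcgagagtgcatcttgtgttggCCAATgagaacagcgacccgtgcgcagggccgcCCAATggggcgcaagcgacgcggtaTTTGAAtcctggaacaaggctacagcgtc
CCNA2: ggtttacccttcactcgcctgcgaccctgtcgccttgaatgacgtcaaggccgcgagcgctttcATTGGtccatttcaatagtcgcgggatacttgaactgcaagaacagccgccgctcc

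The CCNB2 stretch is chr15:59105026-59105145 on the plus strand and holds 3 CCAAT boxes and 1 CHR. That of CCNA2 is chr4:121823884-121824003 on the minus strand and holds 1 CCAAT box, written on the other strand as ATTGG, and 0 matches to TTTGAA. CCNB2 itself rose by 0.60 (chosen after its value was seen). The same 120 bases were also taken for CDC25C, and they held 0 CCAAT boxes and 0 matches to TTTGAA. Of 21 risen list members with a promoter sequence, 15 held CCAAT (71.4%) and 12 held TTTGAA (57.1%), against 35.7% and 15.4% of all 27305 promoters. Of the 13 members with a promoter sequence that did not pass, 10 held CCAAT and 10 held TTTGAA (76.9% each). These shares were not lower than among the members that rose.

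Clustered histone genes, whose messages are made in S phase and mostly lack a poly(A) tail, also rose: of 15 tested 11 rose (73.3%), 1 fell (6.67%) and 3 did not pass (median 0.41). H3C8 read 41.8, 38.7 and 30.7 against 13.1, 9.40 and 10.5, H3C2 47.1, 45.5 and 45.4 against 11.6, 22.6 and 20.8 and H4C8 51.0, 50.0 and 47.5 against 22.2, 21.1 and 25.9, all dim and without overlap. The control signals of these genes lay below the group means of CDKN2A (29.7 and 32.6), which U87 cells are known to lack. These rises therefore began at background level. The other probe set of H4C8 did not pass (-0.0023). The 1 member that fell was H2BC21, by 0.60. Without miR-376a*G replicate 2 the number that rose was 7, and without control replicate 1, where the list mean was lowest, it was 10. With the filter on dim probe sets set at the 60th percentile, 8 members were tested, of which 6 rose and 1 fell.

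Mitochondrial ribosomal proteins, which translate the respiratory subunits encoded in mitochondria, formed the longest one-sided list. Of 69 tested 39 rose (56.5%), 0 fell and 30 did not pass, with a median of 0.31. Against miR-376a*A only 10 of the 69 were higher with miR-376a*G and 0 lower, and the list median of miR-376a*A minus control was 0.15. After MRPS14 the smallest p-values were those of MRPL1 (0.74), MRPL35 (0.84) and MRPS35 (0.39). Part of the size rested on 1 array: the list mean was 0.18, 0.18 and 0.14 on the miR-376a*G arrays and -0.41, -0.0099 and -0.076 on control replicates 1, 2 and 3. Without control replicate 1, 39 rose and 1 fell, and the median was 0.19; without control replicate 2, 50 rose, and without miR-376a*G replicate 2, 26. Of 45 nuclear-encoded subunits of oxidative phosphorylation 4 rose (8.89%), 1 fell (2.22%) and 40 did not pass (median 0.11). Their count of rises was 17 without control replicate 2, 2 without miR-376a*G replicate 2 and 8 with each array centred on its median, and without control replicate 1 the median was 0.0097 and 2 fell, as also without miR-376a*G replicate 1. SDHD, a membrane anchor of succinate dehydrogenase, fell from 706 ± 69.1 to 344 ± 8.93 (adjusted p = 1.82e-06), while SDHC, the other anchor, rose by 0.39.

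**Figure D4:**
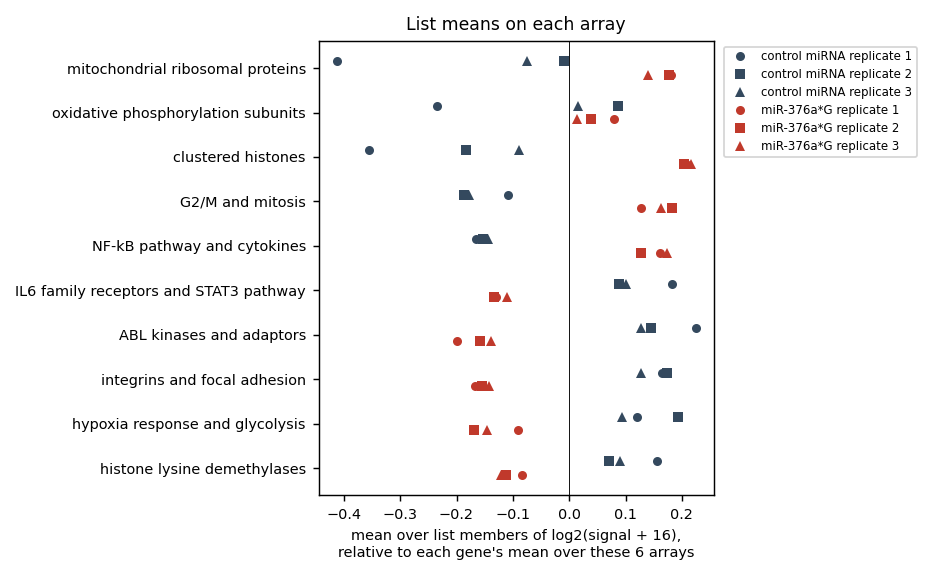
Mean of the list members on each array (log2(signal + 16), relative to each gene's mean over these 6 arrays) for 10 gene lists, with control arrays dark, miR-376a*G arrays red and the replicate given by the symbol. For the mitochondrial ribosomal proteins control replicate 1 lies at -0.41, apart from the other controls, whereas for G2/M genes, cytokines, integrins and ABL adaptors the 3 arrays of a group lie close together.

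Cytokine genes and genes of the IL6 receptor pathway changed in different proportions. Of 35 genes of the NF-kB pathway and cytokines 17 rose (48.6%), 5 fell (14.3%) and 13 did not pass (median 0.18); the number that fell was 3 without control replicate 3 or miR-376a*G replicate 3. CXCL1, a neutrophil chemokine, read 111, 112 and 125 against 42.6, 37.5 and 37.8 (log2 difference 1.25 ± 0.085 SE, adjusted p = 5.31e-07), and LIF, an IL6-family cytokine, 367 ± 13.4 against 175 ± 7.29. CCL2, a monocyte chemokine, rose by 1.48, while CSF1, the macrophage growth factor, fell by 0.95. Of 20 receptors and STAT3 pathway genes 0 rose, 8 fell (40%) and 12 did not pass (median -0.20), with 1 rise without control replicate 1. IL6R, the ligand-binding receptor, read 94.6, 80.9 and 81.9 against 229, 179 and 194 (log2 difference -1.09 ± 0.096 SE, adjusted p = 5.01e-06). STAT3, the transcription factor, fell by 0.66, its feedback inhibitor SOCS3 by 0.72 and the oncostatin M receptor OSMR by 0.42. The other members that fell, all chosen after their values were seen, were the receptor LIFR by 0.45, the kinase JAK1 by 0.27 and the inhibitors SOCS1 by 0.38 and SOCS5 by 0.28. JAK1 did not pass without miR-376a*G replicate 2 (adjusted p = 0.0548), nor SOCS1 when miR-376a*G replicate 1 (0.0556) was dropped, or when control replicate 3 was (0.054). SOCS5 passed only without control replicate 2 when 1 array was left out (0.0504 to 0.115 otherwise).

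The BMP pathway list held changes in both directions, with the fall of the receptor ACVR1 among the largest. Of 26 genes 10 rose (38.5%), 7 fell (26.9%) and 9 did not pass (median 0.16). Leaving out miR-376a*G replicate 1 or 2 gave 6 rises, and leaving out control replicate 3 gave 4 falls. Beside ACVR1, TWSG1, an extracellular BMP-binding protein, read 262, 276 and 271 against 701, 578 and 648 (log2 difference -1.20 ± 0.090 SE, adjusted p = 1.3e-06). SMAD9, a receptor-regulated SMAD, rose by 0.70. Among genes chosen after their values were seen, the BMP antagonist GREM1 rose by 0.62 and the ID-family target ID3 from 342 ± 72.1 to 641 ± 54.0, whereas the inhibitory SMAD7 fell by 0.59. Of 21 genes of the TGF-beta list 4 rose (19%), 4 fell (19%) and 13 did not pass, shares not far from those of all genes, with 2 that fell without miR-376a*G replicate 2. There SMAD3, a receptor-regulated SMAD, fell by 0.63, and SKIL, a transcriptional repressor that binds SMADs, rose by 0.43.

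Genes of the YAP and TEAD pathway, whose coactivators YAP and TAZ respond to cell shape and tension, were mixed. Of 27, 11 rose (40.7%), 6 fell (22.2%) and 10 did not pass. CCN1, a matricellular protein like CCN2, read 435, 472 and 490.4 against 228, 199 and 233 (log2 difference 1.03 ± 0.082 SE, adjusted p = 1.94e-06), and DLC1, another GTPase-activating protein, rose by 0.73. AXL, a receptor tyrosine kinase, fell by 0.53. The list median was 0.090, and it was -0.026 where each gene was the mean of its probe sets.

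Among adhesion genes and the partners of ABL1, falls outnumbered rises, although most members did not pass. Of 30 integrin and focal adhesion genes 1 rose (3.33%), 13 fell (43.3%) and 16 did not pass (median -0.25); the single rise became 2 without control replicate 1 and 0 without control replicate 3 or miR-376a*G replicate 2 or 3. VCL, vinculin, read 652, 682 and 703 against 1489, 1423 and 1397 (log2 difference -1.06 ± 0.060 SE, adjusted p = 1.07e-07), ITGA5, the fibronectin receptor subunit, 323, 279 and 304 against 683, 789.7 and 694, and FERMT2, an integrin-activating kindlin, fell by 0.68. The list of ABL kinases and adaptors was drawn up around ABL1 and is therefore no independent evidence of its direction: of 19, 0 rose, 7 fell (36.8%) and 12 did not pass (median -0.25). CBLB, a ubiquitin ligase for tyrosine kinases, fell by 0.79, WASF3, an actin nucleation factor, by 0.70 and the adaptor CRKL from 650.3 ± 65.9 to 438 ± 16.8. Among 32 collagens, laminins and lysyl oxidases 2 rose (6.25%), 8 fell (25%) and 22 did not pass, or 5 rises when control replicate 1 was dropped and 5 falls when miR-376a*G replicate 2 was dropped. COL6A2, a chain of collagen VI, read 62.4, 53.7 and 61.7 against 161, 186 and 148, but its other probe set did not pass (-0.086). COL6A1, another chain of collagen VI, fell by 0.61. LOXL2, a lysyl oxidase, rose by 0.72, and its other probe sets did not pass (0.17 and 0.12). Of 32 matrix proteases and their inhibitors 8 rose (25%), 5 fell (15.6%) and 19 did not pass, with 3 falls without miR-376a*G replicate 2. ADAMTS1 read 606, 663 and 649 against 264, 199 and 234 and ADAMTS5 631, 618 and 603 against 246, 221 and 253, both aggrecan-cleaving enzymes, and MMP2, a gelatinase, fell by 0.50.

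Chromatin erasers fell more often than they rose. Of 22 genes listed as histone lysine demethylases or related jumonji-domain proteins, 2 rose (9.09%), 9 fell (40.9%) and 11 did not pass (median -0.23). JMJD6, a jumonji-domain dioxygenase, read 336, 332 and 336 against 632, 646 and 694 (log2 difference -0.94 ± 0.061 SE, adjusted p = 4.1e-07). KDM5B, which removes methyl groups from lysine 4 of histone H3, read 114, 126 and 126 against 309.9, 207 and 257, and KDM4B fell by 0.72, while PHF2 rose by 0.54. Of 17 histone deacetylases and sirtuins 0 rose, 4 fell (23.5%) and 13 did not pass, and HDAC4 was the only one past 2-fold. The share called in either direction was below the 28.4% of single-symbol genes. Among the falls HDAC10 was very dim (6.71 against 17.0), and the other probe set of HDAC5 did not pass (0.14). The count of falls was 2 without miR-376a*G replicate 2, and 1 member rose without control replicate 1 or 2 or miR-376a*G replicate 1. Circadian genes also fell more often than they rose: of 17, 1 rose (5.88%), 6 fell (35.3%) and 10 did not pass (median -0.22), with 2 rises without control replicate 1. NFIL3, a repressor of clock output, read 206, 179.5 and 208 against 403, 395 and 393, BHLHE40, a repressor of the clock loop, fell by 0.71 and the nuclear receptor RORA by 0.70, against the rise of NR1D2.

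The machinery that makes miRNAs and carries out silencing was mixed. Of the 25 genes tested 5 rose (20%), 7 fell (28%) and 13 did not pass; 3 rose without miR-376a*G replicate 1 or 2 and 2 without replicate 3. DCP1A, the decapping activator, read 170.1, 171 and 183 against 398, 438 and 359 (log2 difference -1.11 ± 0.080 SE, adjusted p = 8.64e-07), and DCP2, the decapping enzyme, 179, 196 and 180.5 against 471, 378 and 434 (log2 difference -1.14 ± 0.086 SE, adjusted p = 1.38e-06). Of the 2 other probe sets of DCP2, the brighter passed with the opposite sign (0.30 log2) and the dimmer fell. CNOT6, a deadenylase subunit, moved the other way, from 119 ± 16.3 to 277 ± 1.97, and AGO1, an Argonaute that holds the miRNA, fell by 0.69. The editing enzyme ADAR read 349, 328 and 343 against 528, 502 and 439.9 (log2 difference -0.50 ± 0.074 SE, adjusted p = 0.000332). ADARB1, the second editing enzyme, was dim at 31.4, 32.8 and 20.9 against 34.0, 40.9 and 31.9 and did not pass (-0.23, adjusted p = 0.206), although it passed with the mean of its probe sets at -0.26.

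Metabolic and stress lists held changes in both directions. Hypoxia response and glycolysis genes were the most one-sided: of 38, 1 rose (2.63%), 18 fell (47.4%) and 19 did not pass (median -0.20). PFKFB4, a regulator of glycolytic flux, read 224, 195 and 199 against 468, 431 and 351, and SLC2A1, the glucose transporter GLUT1, fell by 0.58. Of 31 genes of the unfolded protein response and ATF4 targets 8 rose (25.8%), 2 fell (6.45%) and 21 did not pass, with 5 rises without miR-376a*G replicate 1 or 3 and 1 fall without replicate 2 or 3. ATF6, a stress sensor of the endoplasmic reticulum, read 228, 235 and 239.9 against 515, 434 and 434 (log2 difference -0.93 ± 0.076 SE, adjusted p = 2.64e-06), while DDIT3, the stress transcription factor CHOP, read 498, 491 and 512 against 179, 257 and 246 and XBP1 rose by 0.60. Of 23 genes of cholesterol synthesis and uptake 7 rose (30.4%), 5 fell (21.7%) and 11 did not pass. There the sterol sensor SCAP and its retention factor INSIG1 fell by 0.46 and 0.39, and STARD4, a sterol carrier, rose by 0.59. Ephrins, semaphorins and plexins split as 6 rises and 5 falls of 27, and 16 did not pass. They were led by SEMA7A, a membrane-anchored semaphorin, at 553, 530.0 and 641 against 194, 299.6 and 258. The other probe set of SEMA7A did not pass (-0.095).

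**Figure D5:**
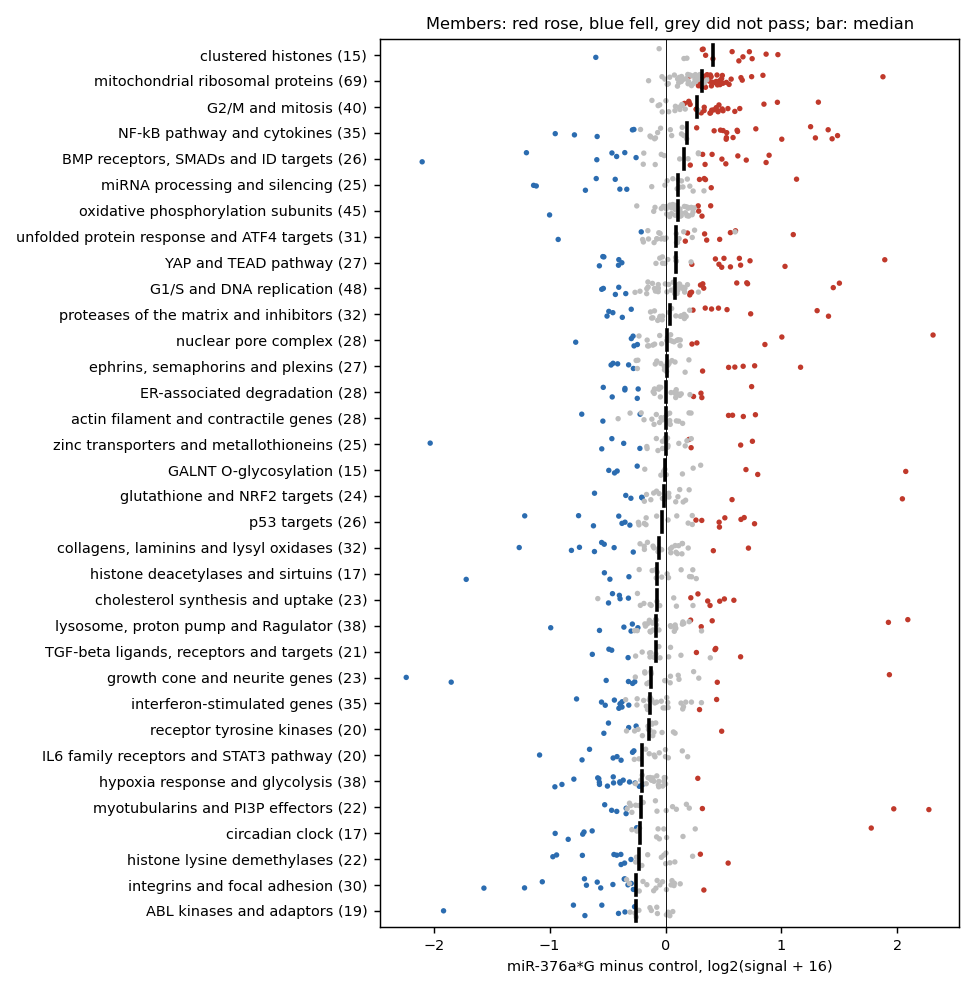
Difference between miR-376a*G and control (log2(signal + 16)) for the tested members of 34 gene lists, with the number tested in brackets, red for members that rose, blue for members that fell, grey for members that did not pass and a black bar at the list median. Lists are ordered by median, from -0.25 for ABL kinases and adaptors at the bottom to 0.41 for clustered histones at the top, and most lists in the middle hold members of both colours.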

How the data were processed

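The authors deposited 1 linear signal intensity per probe set and array. Per the submitters' processing notes GCOS 1.4.0.036 was used, in a role that is not stated; the signal algorithm is not given in the sources used here. Per the labels' protocols 1 µg of total RNA was labelled per array. Every array had a trimmed mean (2%) of 100.01, so a change common to all genes would be hidden.

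Of 54613 probe sets 41091 had a single symbol in the platform annotation, 1801 had several and 11721 none. Probe sets with a mean log2(signal + 16) of at least 4.771 (signal 11.3, the 40th percentile) were kept, 32768 in all, and the brightest represented each gene. All 9 arrays entered 1 fit (limma 3.58.1, R 4.3.3, lmFit and eBayes with intensity trend, 6 residual and 6.48 prior degrees of freedom), with two-sided tests and Benjamini-Hochberg adjustment over all features at 0.05. In data simulated for miR-376a*G against control (20068 features, 200 changed) the fit found 72% of 1.5-fold and 96% of 2-fold changes, and 5.08% of its calls were false. The simulated noise was independent between genes and equal in all groups, and far fewer features changed than were called here. These shares therefore need not hold for the real arrays, where control replicates 1 and 2 deviated more than the others. The number of arrays limits the precision.

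The comparison and the gene lists (1136 symbols, 1072 matched) were chosen with earlier results of these data known. Several lists hold genes named among the largest changes, so their counts are not independent of those genes. Named genes are the 30 largest rises and falls with a single symbol and groups that do not overlap, the 4 members of smallest p per list, RAP2A, ADAR and ADARB1; others, apart from cell markers, are said to be chosen after their values were seen. A further gene of the rule is not reported here. Lists were counted and not tested as sets. Other probe sets are mentioned for some genes only, and where they are not, they need not have agreed. Symbols were checked against RefSeq for GRCh38.p14. Figures used Python 3.11.15 and matplotlib 3.10.9.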

Additional observations from a re-analysis of the deposited data

How the results depend on the processing

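The count of features that passed (4993) was 3477 at the lowest (miR-376a*G replicate 2 left out) and 5414 at the highest (control replicate 2 left out) when 1 array was dropped, and the count at 2-fold or more (244) between 240 and 259. It was 9466 with array weights, where control replicate 3 took a weight of 8.16, and 8454 with every probe set tested, a larger set. At 2-fold or more the count was 381 with every probe set, 459 with an offset of 1 in place of 16 and 123 with an offset of 64, since the offset sets how far dim genes can move. The 35 named genes that passed between the forms were 32 to 38 when 1 array was left out. Rises and falls were 2585 and 2412 with quantile normalization, against 2374 and 2619. With the replicate number as a block 4714 passed, and with only the 6 arrays compared in the fit 4001 passed. Deviations of same-numbered miR-376a*G and control arrays correlated at -0.11, 0.0077 and -0.046, and those of differently numbered arrays at -0.125 to 0.142. With so few arrays these values cannot tell whether same-numbered arrays shared a culture or a day. RAP2A was -0.11 with the mean of its probe sets. Without control replicate 1 and with each array centred on its median, chosen after seeing the data, 5220 passed, 241 of them at 2-fold or more.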
